A study of Mus musculus with 2 samples.

Results

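The Kruppel-like factor (Klf) genes encode transcription factors with zinc fingers, and 10 of them were read here in 2 libraries of iHFSC2, mouse hair follicle stem cells that were immortalized and are grown as a line. The members are the genes with the symbols Klf2, Klf3, Klf4, Klf5, Klf6, Klf7, Klf9, Klf10, Klf11 and Klf13, which are 10 of the 22383 genes in the deposited table. The shcircSmad5 library came from cells with a lentivirus that expresses a hairpin against circSmad5, a circular RNA of the Smad5 gene. The empty vector library came from cells infected with the same kind of virus without a hairpin. Both lines were placed under puromycin from day 4 after infection and were stable at day 15. Each group is 1 library from 1 selected line, so no difference below has a replicate check and none was tested. Line-to-line variation and an effect of the hairpin cannot be told apart, and no control hairpin was included.

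Klf proteins bind GC-rich and CACCC elements in promoters through zinc fingers at their C-terminal end, and the family differs mainly in the regions that recruit cofactors. Klf2, Klf4, Klf5, Klf6 and Klf7 belong to the branch best known for activation, Klf3 recruits the corepressor CtBP, and Klf9, Klf10, Klf11 and Klf13 recruit the corepressor Sin3. In mouse skin Klf4 is required for the barrier of the differentiated layers, and Klf5 is found in proliferating basal cells.

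The promoters of the members with the largest ratios in each direction are shown, because Klf proteins can act on GC boxes and CACCC elements, which the promoters of Klf genes may carry themselves. The bases lie upstream of the RefSeq start (GRCm38.p6) and stop where an annotated exon of the gene begins. For Klf7 they lie inside the annotated span of the gene, 64029447 to 64122282, and so downstream of its outermost start. Capitals mark GGGCGG and CACCC on either strand.
Klf7 chr1:64121492-64121639, minus strand: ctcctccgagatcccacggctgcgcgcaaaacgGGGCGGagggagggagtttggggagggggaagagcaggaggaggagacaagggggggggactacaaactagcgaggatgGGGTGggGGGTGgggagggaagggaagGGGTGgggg
Klf2 chr8:72318812-72319032, plus strand: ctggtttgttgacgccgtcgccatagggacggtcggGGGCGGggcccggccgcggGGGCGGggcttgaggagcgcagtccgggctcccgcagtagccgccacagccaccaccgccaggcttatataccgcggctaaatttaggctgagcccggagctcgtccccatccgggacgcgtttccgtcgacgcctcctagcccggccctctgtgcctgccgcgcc
Klf4 chr4:55532476-55532725, minus strand: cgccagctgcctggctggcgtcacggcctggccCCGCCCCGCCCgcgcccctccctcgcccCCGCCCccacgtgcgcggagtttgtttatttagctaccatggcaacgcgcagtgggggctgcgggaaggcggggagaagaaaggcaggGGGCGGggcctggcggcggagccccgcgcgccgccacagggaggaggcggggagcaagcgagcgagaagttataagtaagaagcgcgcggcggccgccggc
Klf6 chr13:5861239-5861481, plus strand: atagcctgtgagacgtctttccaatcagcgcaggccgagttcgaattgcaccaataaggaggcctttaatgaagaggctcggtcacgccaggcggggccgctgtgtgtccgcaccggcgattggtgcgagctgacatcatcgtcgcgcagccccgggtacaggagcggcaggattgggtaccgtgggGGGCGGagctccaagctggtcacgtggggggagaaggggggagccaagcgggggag

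RefSeq promoters were matched for 8 of the 10 members, each taken as the 250 bases before the RefSeq start. For Klf7 this window lies inside the annotated gene, and for Klf2, Klf3, Klf6 and Klf11 its end does. GGGCGG was present on one or the other strand in 7 of these 8, all but Klf9, against 32.7% of all 32851 promoters of that length. CACCC was present in 5 of 8, against 52.0% of all promoters. Klf3 had 5 copies, Klf7 had 3, and Klf4, Klf6 and Klf11 had none. In the part of the window before the annotated gene, Klf3 had 2 copies and Klf2 had 0, against 1 in the full window of Klf2. The box TATAAA was in none of the 8 and in 12.4% of all promoters. The searched CACCC and GGGCGG letters overlapped by 1 base in Klf3 and in Klf13. The GC content of the 8 windows was between 59.2% in Klf7 and 78.4% in Klf3, against a median of 52.4% over all promoters. GGGCGG occurs both in promoters of members with a higher level and in those of members with a lower level in the shcircSmad5 library.

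The total gene count was 38382081 in the shcircSmad5 library and 39261010 in the empty vector library. All 10 members had at least 82 counts in each library, and 13596 genes reached 20 counts in either library. The cells carried the basal keratinocyte markers at high level, with Krt14 at 3359 FPKM in the shcircSmad5 library and 2361 FPKM in the empty vector library. Of 14 markers of basal keratinocytes and follicle stem cells, 12 had counts. The bulge markers Cd34 and Lgr5 had no counts, being either at 0 or absent from the deposited table. Lhx2, another bulge marker, had 5 shcircSmad5 and 4 empty vector counts. Endothelial cells, which are rich in Klf2, left little trace. In the shcircSmad5 library Pecam1 had 27 counts, Kdr 4 and Tek 0, and in the empty vector library Pecam1 had 81, Kdr 33 and Tek 5. Cdh5, another defining endothelial gene, was likewise without counts.

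By level per length, Klf6 and Klf4 led the family in both libraries, and these 2 genes also had the largest losses in FPKM. Klf6 took 33.6% of the summed FPKM of the 10 members in the shcircSmad5 library and 40.2% in the empty vector library. Klf4 took 20.1% in the shcircSmad5 library and 25.5% in the empty vector library. The 10 members together came to 302 FPKM in the shcircSmad5 library, against 408 FPKM in the empty vector library. Without Klf4 and Klf6 the other 8 members came to 139.6 FPKM in the shcircSmad5 library, against 140.0 FPKM in the empty vector library. Klf6 and Klf4 thus account for nearly the whole difference in the family's summed level. In bulk RNA, fewer cells that express a gene and less of its RNA per cell cannot be told apart.

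The order below these 2 genes changed more. Klf13 came next in both libraries. In the shcircSmad5 library it was followed by Klf5, Klf9, Klf10, Klf3, Klf7, Klf11 and Klf2. In the empty vector library it was followed by Klf9, Klf3, Klf5, Klf10, Klf11, Klf7 and Klf2. In the empty vector library Klf3 (22.60 FPKM) and Klf5 (22.56 FPKM) were level with each other. The median over all genes with at least 20 counts was 5.50 FPKM in the shcircSmad5 library and 5.54 FPKM in the empty vector library, so Klf11 sat near the middle of the expressed genes and Klf2 well below it.

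**Figure D1:**
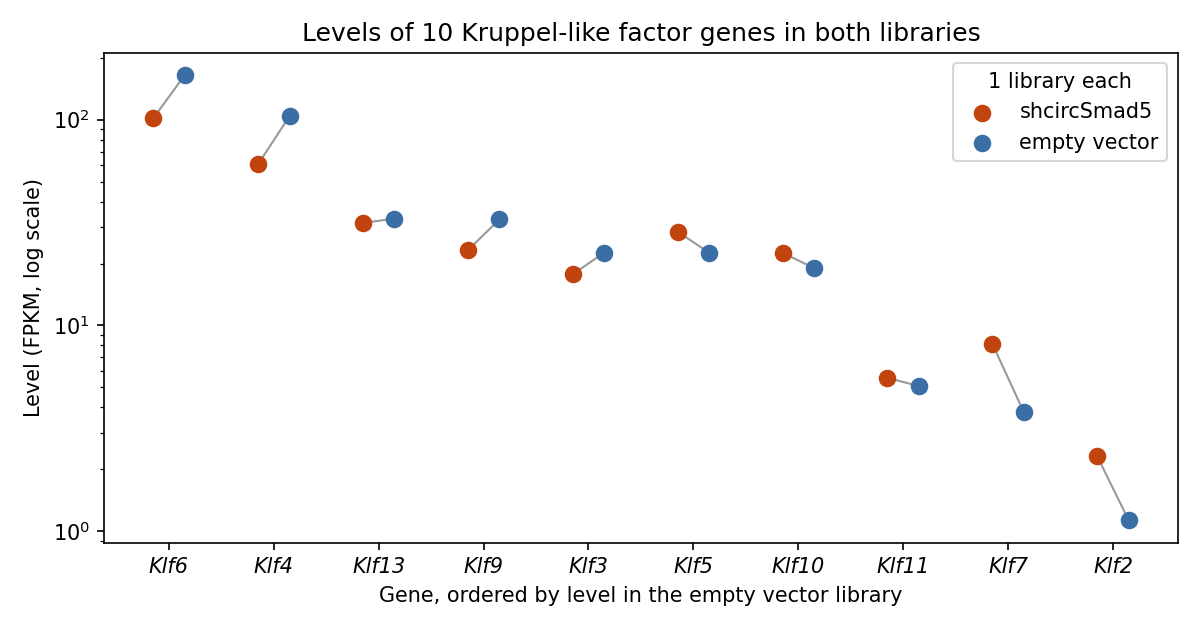
Level of each of the 10 Klf genes in FPKM on a log axis, in the shcircSmad5 library (orange, left) and the empty vector library (blue, right), 1 library each, ordered by level in the empty vector library. Klf6 and Klf4 are the highest in both libraries and lower in the shcircSmad5 library, and Klf7 and Klf2, near the bottom, are higher there.

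The comparison of both libraries asks how the family stood in the line with the hairpin. Ratios are shcircSmad5 over empty vector on counts scaled by TMM, which sets both libraries to a common level, with a 95% interval that covers counting error only. The size rule used here calls a gene when either library reaches 20 counts, the levels differ 2-fold or more, and 1 lies outside the interval. Of the 10 members, 1 was higher, Klf7, and none was lower. Among all genes with at least 20 counts, 8.43% were higher and 6.24% were lower, and among protein-coding genes 4.61% and 6.38%. A share of 1 in 10 is close to these backgrounds. The median log2 ratio of the members was -0.03, against -0.02 over all genes with at least 20 counts, with 5 members above 0 and 5 below.

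Among the activator branch, Klf7 (ENSMUSG00000025959, chromosome 1, 64029447 to 64122282, minus strand), known from neuron development in the mouse, had 2542 counts in the shcircSmad5 library and 1210 in the empty vector library. That is 8.15 FPKM in the shcircSmad5 library and 3.79 FPKM in the empty vector library. The ratio was 2.06-fold (1.92 to 2.21), a log2 ratio of 1.04, so its counting interval reaches below the 2-fold limit. Of all genes with at least 20 counts, 8.08% had a ratio as high or higher, and of protein-coding genes 4.35%. Of the 8131 exonic bases of Klf7, 3200 lie under exons of the opposite-strand noncoding genes Gm13748 and Gm26649. The strand setting of the counting is not given in the sources used here, so reads of these genes and of Klf7 may not be told apart. The deposited table holds no row for Gm13748 or Gm26649, so no counts of their own could be set beside those of Klf7.

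Klf2 (ENSMUSG00000055148, chromosome 8, 72319033 to 72321656, plus strand), a regulator of endothelial quiescence and T cell traffic, had 164 shcircSmad5 and 82 empty vector counts. Its level was 2.31 FPKM in the shcircSmad5 library and 1.13 FPKM in the empty vector library, the lowest of the 10 in both. The ratio was 1.96-fold (1.49 to 2.59), just short of the size rule, and it passed 2-fold under 5 of 7 other scalings. Its count was the larger in the shcircSmad5 library, whereas the endothelial markers Pecam1 (3.06-fold) and Kdr (8.42-fold) were lower there. Their part in the value of Klf2 was not tested.

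Klf4 (ENSMUSG00000003032, chromosome 4, 55527143 to 55532466, minus strand), the barrier regulator and reprogramming factor, had 7102 shcircSmad5 and 12455 empty vector counts. Its level was 60.7 FPKM in the shcircSmad5 library and 104 FPKM in the empty vector library, a difference of -43.4 FPKM. It was 1.79-fold lower (1.74 to 1.84), a log2 ratio of -0.84, and did not pass the size rule. In the empty vector library 97.6% of genes with at least 20 counts had a lower FPKM than Klf4, and in the shcircSmad5 library 95.1% had.

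Klf6 (ENSMUSG00000000078, chromosome 13, 5861482 to 5870394, plus strand), a widely expressed regulator of growth and injury responses, had 17079 shcircSmad5 and 28325 empty vector counts, the most of any member. Its level was 101 FPKM in the shcircSmad5 library and 164 FPKM in the empty vector library. It was 1.69-fold lower (1.66 to 1.73), a log2 ratio of -0.76. The ratio is known to within a few percent as far as counting goes, and it too stayed short of 2-fold. Of protein-coding genes, 9.66% had a ratio as low or lower than that of Klf6 and 8.37% than that of Klf4.

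Klf5 (ENSMUSG00000005148, chromosome 14, 99298691 to 99315036, plus strand), a factor of proliferating epithelium, had 5700 shcircSmad5 and 4607 empty vector counts, or 28.6 FPKM in the shcircSmad5 library and 22.6 FPKM in the empty vector library. Its ratio was 1.21-fold (1.17 to 1.26), above 1 by counting but well short of the size rule. The activator branch was therefore split, with Klf2, Klf5 and Klf7 on one side of 1 and Klf4 and Klf6 on the other.

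**Figure D2:**
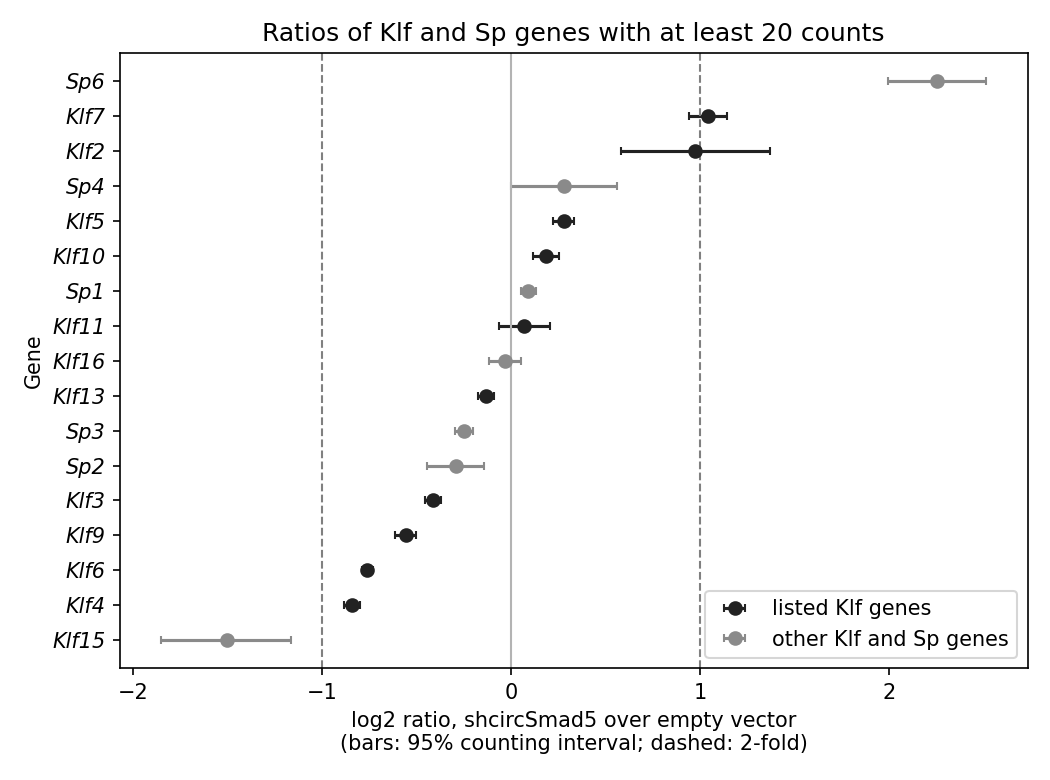
log2 ratio, shcircSmad5 over empty vector, of the 10 listed Klf genes (black) and of 7 other Klf and Sp genes with at least 20 counts (grey). Bars are 95% counting intervals from 1 library per group and dashed lines mark 2-fold. Klf7 at 1.04 is the only listed gene past 2-fold, with Klf2 at 0.97 beside it and Klf4 at -0.84 and Klf6 at -0.76 at the other end.

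Ratios of 2 members within a library do not depend on a scaling factor for the whole library. Klf5 and Klf4 are known for opposite effects on epithelial proliferation. Klf5 stood at 0.471 of the FPKM of Klf4 in the shcircSmad5 library and at 0.217 in the empty vector library, a 2.17-fold higher ratio (95% counting interval 2.07 to 2.28). Klf6 and Klf7 are close relatives in sequence. Klf7 stood at 0.0804 of the FPKM of Klf6 in the shcircSmad5 library and at 0.0231 in the empty vector library, 3.48-fold higher (3.25 to 3.74). Both pairs set a member with a ratio above 1 over Klf4 or Klf6, the members with the lowest ratios. Large folds follow from that choice, and the pairs were not planned in advance. By contrast the ratio of Klf6 to Klf4 differed little, 1.67 in the shcircSmad5 library and 1.58 in the empty vector library (1.06-fold, 1.02 to 1.09). Each of the other 8 members had a higher shcircSmad5 to empty vector ratio than Klf4 and Klf6 with TMM. Centring each chromosome at its median does change such comparisons. Klf5 to Klf4 was then 1.78-fold higher and Klf7 to Klf6 2.97-fold higher, both below the intervals above, and Klf9 had a lower shcircSmad5 to empty vector ratio than Klf4 and Klf6.

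Klf3 (ENSMUSG00000029178, chromosome 5, 64803388 to 64832901, plus strand), the CtBP-dependent repressor, had 7652 shcircSmad5 and 9978 empty vector counts, or 17.7 FPKM in the shcircSmad5 library and 22.6 FPKM in the empty vector library. It was 1.33-fold lower (1.29 to 1.37). Of its exonic bases, 404 lie under the opposite-strand gene Gm20033, which had 3 counts in the shcircSmad5 library and 6 in the empty vector library.

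Among the Sin3-recruiting members, Klf9 had the ratio farthest from 1. Klf9 (ENSMUSG00000033863, chromosome 19, 23141226 to 23168134, plus strand) is induced by glucocorticoids and thyroid hormone. It had 4290 shcircSmad5 and 6187 empty vector counts, or 23.2 FPKM in the shcircSmad5 library and 32.7 FPKM in the empty vector library, and was 1.47-fold lower (1.42 to 1.53). Klf13 (ENSMUSG00000052040, chromosome 7, 63886351 to 63938915, minus strand), an activator of the chemokine gene Ccl5 in T cells, had 9106 shcircSmad5 and 9771 empty vector counts, or 31.5 FPKM in the shcircSmad5 library and 33.0 FPKM in the empty vector library. It was 1.10-fold lower (1.06 to 1.13). In the empty vector library Klf9 and Klf13 were about level, at a ratio of 0.990 in FPKM, and in the shcircSmad5 library Klf9 stood at 0.737 of Klf13.

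Klf10 and Klf11, the TGF-beta inducible early genes, were close to level. Klf10 (ENSMUSG00000037465, chromosome 15, 38291463 to 38300706, minus strand) had 3615 shcircSmad5 and 3120 empty vector counts, or 22.5 FPKM in the shcircSmad5 library and 19.0 FPKM in the empty vector library (1.13-fold, 1.08 to 1.19). Klf11 (ENSMUSG00000020653, chromosome 12, 24651274 to 24662789, plus strand) had 927 shcircSmad5 and 865 empty vector counts, or 5.56 FPKM in the shcircSmad5 library and 5.08 FPKM in the empty vector library. Its interval, 0.956 to 1.15-fold, includes 1, so no difference was detectable at this depth. Relative to the median of their own chromosome both log2 ratios were just below 0, at -0.02 for Klf10 and -0.01 for Klf11.

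The ratio of each member was set beside that of its surroundings, since whole chromosomes differed between the libraries. Klf7 stood apart from the 10 genes with at least 20 counts that start within 1 Mb of it, whose median log2 ratio was 0.07, and from chromosome 1 (0.02). The 40 genes within 1 Mb of Klf2 had a median of -0.23, on the other side of 0 from Klf2. Klf9 (-0.56) also went against its neighbours (0.16, 5 genes) and chromosome 19 (0.14). Klf4 and Klf6 lie on chromosomes with medians of -0.20 and -0.21, the 2 neighbours of Klf4 had a median of -0.16, and the 3 neighbours of Klf6 one of -0.40. Relative to their chromosomes Klf4 was at -0.64 and Klf6 at -0.55, and relative to their neighbours Klf4 was at -0.68 and Klf6 at -0.36. Klf4 thus stood nearly as far from its surroundings as Klf9, which was at -0.70 relative to its chromosome and -0.72 relative to its neighbours. Klf5 (0.28), Klf10, Klf11 and Klf13 lay closer to their neighbours, whose medians were 0.42, 0.12, 0.16 and -0.24.

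Of the 116 neighbours of the 10 members, 6 were higher (5.17%) and 4 lower (3.45%), beside 8.43% higher and 6.24% lower over all genes with at least 20 counts. They were named after their values were seen. Near Klf3, 4 of 26 neighbours passed. Near Klf2 these were Abhd8 (2.04-fold lower) and the zinc finger genes Zfp709, with 3 shcircSmad5 and 118 empty vector counts, and Zfp882, with 4 shcircSmad5 and 21 empty vector counts. Near Klf3 the unspliced model C230096K16Rik, which starts 626 bases from Klf3 on the same strand, had 98 shcircSmad5 and 219 empty vector counts and was 2.28-fold lower. Gm43628, Gm43627 and 4930589O11Rik, also near Klf3, were higher. The noncoding genes 2810408I11Rik near Klf7 (5.35-fold), G930009F23Rik near Klf10 (3.58-fold) and Gm27252 near Klf13 (21 shcircSmad5 and 1 empty vector counts) were higher.

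**Figure D3:**
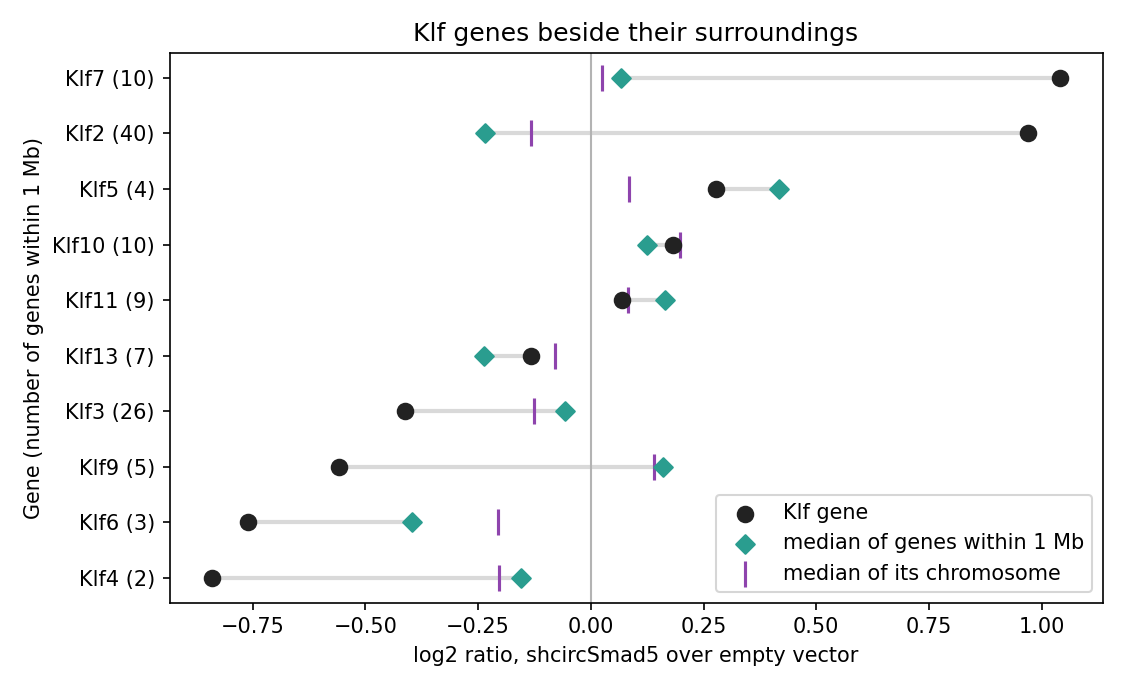
log2 ratio of each Klf gene (black), the median of the genes with at least 20 counts that start within 1 Mb of it (green, their number in brackets) and the median of its chromosome (purple). Klf7, Klf2, Klf9 and Klf4 lie farthest from both medians, whereas Klf10 and Klf11 lie close to them.

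Of the other Klf and Sp genes, 11 of 17 had counts and 7 had at least 20, with 1 higher, 1 lower and a median log2 ratio of -0.03. Sp6, known from tooth and hair epithelium in the mouse, had 733 shcircSmad5 and 151 empty vector counts, or 4.97 FPKM in the shcircSmad5 library and 1.00 FPKM in the empty vector library, and was 4.75-fold higher. Klf15, a glucocorticoid-induced regulator of metabolism, had 98 shcircSmad5 and 272 empty vector counts, or 0.915 FPKM in the shcircSmad5 library and 2.48 FPKM in the empty vector library, and was 2.83-fold lower. Sp1 and Sp3, the widely expressed factors that bind the same GC boxes, had log2 ratios of 0.09 and -0.25, at 33.1 and 35.2 FPKM in the shcircSmad5 library and 29.7 and 40.1 FPKM in the empty vector library. Klf16, Sp2 and Sp4 had log2 ratios of -0.03, -0.29 and 0.28. Klf8 had 1 shcircSmad5 and 13 empty vector counts, which is under the minimum of the size rule. Klf12, Klf1 and Sp8 had 4, 2 and 0 counts in the shcircSmad5 library and 5, 3 and 4 in the empty vector library.

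The cofactors and turnover enzymes of Klf proteins had no member past the size rule. As 4.61% of protein-coding genes were higher and 6.38% lower, lists of this size would hold few such genes at the background share, and a count of 0 in them and in the lists below is not read as a result. None of 14 corepressors and coactivators with at least 20 counts passed the size rule, with a median log2 ratio of -0.17. Among the abundant ones were the corepressor gene Ncor1 (-0.07) and the acetyltransferase gene Crebbp (-0.06). Sin3a (0.08) and Sin3b (-0.24), which serve the Klf9 branch, and Ctbp1 (-0.18) and Ctbp2 (-0.33), which serve Klf3, were all within 2-fold. Farthest from 0 was Sap30, a Sin3 complex gene, at -0.86 (392 shcircSmad5 and 695 empty vector counts), close to Klf4 at -0.84. None of 14 ubiquitin ligases and deubiquitinases passed either (median -0.16), with Nedd4, Smurf1 and Smurf2 at 0.34, -0.32 and -0.24. Wwp1, a ligase for Klf2 and Klf5, had a log2 ratio of -0.33 and Fbxw7, a ligase for Klf5, one of 0.03. Siah1b (-0.81) and Itch (-0.58) were the farthest from 0.

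Nor did the genes upstream of Klf2 and Klf4 in the MEK5, ERK5 and MEF2 pathway pass the size rule, with 0 of 9 called and a median of 0.06. The class IIa deacetylase gene Hdac7 was the farthest, with 9267 shcircSmad5 and 5899 empty vector counts and a log2 ratio of 0.62. Map3k2 had 0.12, and Mef2a, which codes for a factor that drives Klf2 and Klf4 in endothelium, had -0.46. Mapk7, the gene of ERK5, had -0.42.

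Klf9 was set beside 13 genes of the glucocorticoid response, whose median log2 ratio was 0.15. Only Dusp1 passed, 2.97-fold lower with 1847 shcircSmad5 and 5376 empty vector counts, and it lies on chromosome 17, whose median was -0.38. Of the 13 genes, 8 had a log2 ratio above 0 and 5 below. The classical glucocorticoid targets Fkbp5, Per1 and Tsc22d3 had log2 ratios of 0.60, 0.30 and 0.22, and the receptor gene Nr3c1 had 0.29. Fkbp5 and Angptl4 also lie on chromosome 17, and Tsc22d3 lies on chromosome X, whose median was -0.43. The metallothionein gene Mt2 had 0.84. On the side of Klf9 (-0.56) and Klf15 were, with Dusp1, the genes Angptl4 (-0.34), Ddit4 (-0.20), Mt1 (-0.34) and Cebpd (-0.87, with 24 shcircSmad5 and 43 empty vector counts).

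Klf10 and Klf11 were set beside 14 genes of TGF-beta signalling and its early response, of which none passed (median -0.21). The list includes the ligand gene Tgfb1, the receptor genes Tgfbr1 and Tgfbr2 and the signal transducer genes Smad2, Smad3 and Smad4. Its median is therefore not that of early response genes alone. The most abundant members of the list were Bhlhe40 (-0.32), Smad4 (-0.15) and Smad2 (0.03). Smad7 and Skil, both feedback genes, had 0.26 and 0.28, near Klf10 at 0.18.

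Klf4 is known from the epidermal barrier. Of 14 barrier genes with at least 20 counts 3 were higher and 2 lower, with a median log2 ratio of 0.26. These are shares of 21.4% and 14.3% of a short list. Over protein-coding genes with at least 20 counts 4.61% were higher and 6.38% lower, and over all such genes 8.43% and 6.24%. The difference of the list from these backgrounds was not tested. Higher were the transcription factor genes Zfp750 (4.76-fold, 3766 shcircSmad5 and 775 empty vector counts), Cebpa (3.30-fold, 543 shcircSmad5 and 161 empty vector counts) and Prdm1 (2.28-fold, 925 shcircSmad5 and 397 empty vector counts). Lower were the cornified envelope genes Sprr1a (2.68-fold, 324 shcircSmad5 and 849 empty vector counts) and Sprr2a1 (5.74-fold, 16 shcircSmad5 and 90 empty vector counts). Grhl3, Ovol1 and Cebpb, other regulators of differentiation, had log2 ratios of 0.28, 0.24 and 0.30, and Hopx had -0.09, while Klf4 was at -0.84. The remaining barrier genes lay on both sides of 0. Cdsn, Tgm1 and Krt10 had 0.53, 0.38 and 0.20, and Ivl and Sprr1b had -0.10 and -0.57.

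Of 18 genes reported as direct Klf targets in various cell types 13 had at least 20 counts and none passed, with a median of -0.17. Of these 13 genes, 3 had a log2 ratio above 0 and 10 below. Ccnd1, a cyclin gene that Klf5 raises and Klf4 lowers, had 20305 shcircSmad5 and 15818 empty vector counts and a log2 ratio of 0.33. The other cyclin genes of the list, Ccne1 and Ccnb1, had 0.35 and -0.57. Whether any of them follows the Klf levels was not tested. Cdkn1a, the cell cycle inhibitor gene that Klf4 and Klf6 activate, had -0.09 and Trp53 had -0.16. Lgals3, which Klf3 represses in the mouse, had 4607 shcircSmad5 and 8311 empty vector counts and -0.88, the lowest ratio of the list.

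**Figure D4:**
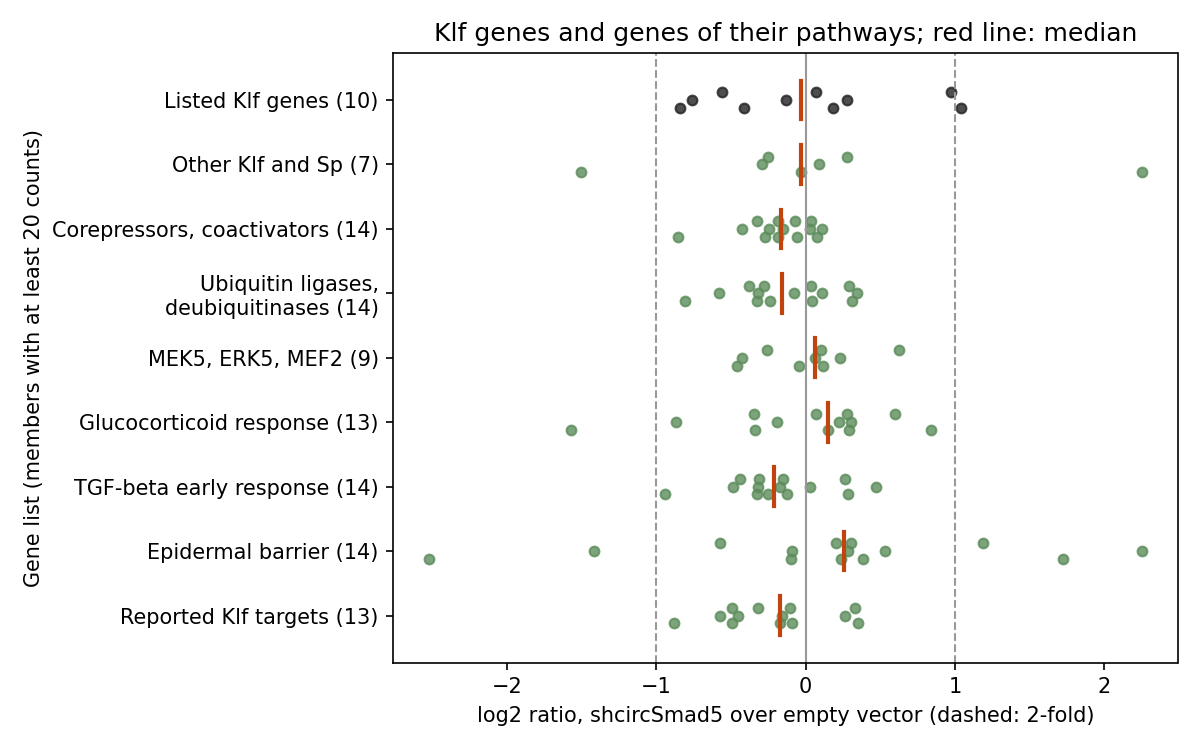
log2 ratio of the listed Klf genes (black) and of the members with at least 20 counts of 8 gene lists around them (green, their number in brackets), 1 point per gene, with the median in red and 2-fold dashed. Most points lie within 2-fold. The epidermal barrier list holds 3 genes above and 2 below it.

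A factor for the whole library moves all members by the same log2 amount, whereas centring each chromosome moved them by different amounts and in both directions. Klf4 came to -0.64 and Klf9 to -0.70 in that setting, against -0.84 and -0.56 with TMM. Under 7 other scalings the log2 ratio of Klf7 was between 1.02 and 1.12 and that of Klf2 between 0.97 and 1.10. That of Klf4 was between -0.83 and -0.64 and that of Klf6 between -0.75 and -0.55. Of the 10 members 8 kept their sign under all 7 scalings, and Klf10 and Klf11 changed it with each chromosome centred.

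**Figure D5:**
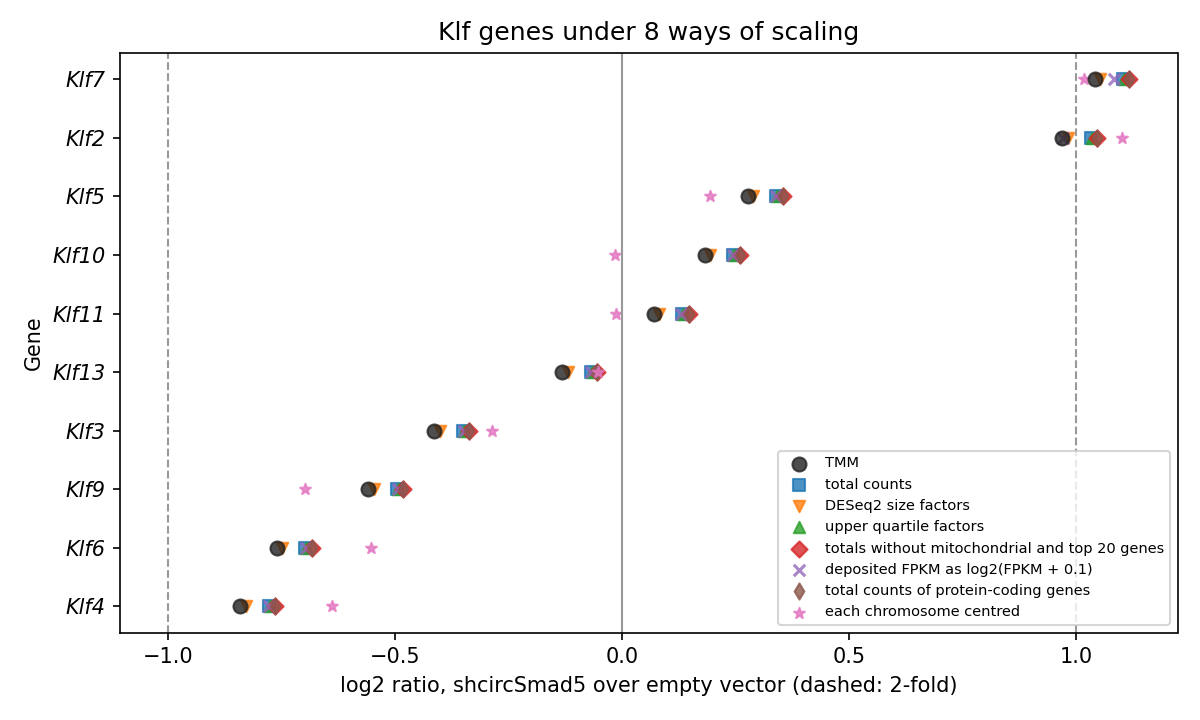
log2 ratio of each Klf gene, shcircSmad5 over empty vector, with TMM (black) and with 7 other scalings (coloured). Klf7 stays to the right of the dashed 2-fold line throughout, Klf2 lies on both sides of it, and Klf4 and Klf6 do not reach it on the left.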

How the data were processed

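RNA of 1 shcircSmad5 and 1 empty vector library was ribosome-depleted from 3 µg of total RNA and made into strand-marking libraries, per the labels' protocols. HISAT2, HTSeq 0.13.5, GRCm38 and GRCh38 are named in the submitters' processing notes without their roles. For the counting, neither strand setting nor annotation is stated (not given in the sources used here). For each library the authors deposited read counts per gene, as whole numbers, and FPKM values, per the file headers. The deposited FPKM equals the count per total and per a whole-number gene length (within 0.001 bases) for 100% of genes above 0 in the shcircSmad5 library. For the members this length is the summed exon length in GENCODE M21.

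Scaling used the TMM method (edgeR 4.0.16, R 4.3.3). Each ratio has a 95% interval from the exact Clopper-Pearson limits for the shcircSmad5 share of the gene's counts (scipy 1.17.1). Intervals of within-library ratios are normal approximations on the log scale. A count of 0 was set to 3 counts in medians. The size rule was checked on simulated counts that held counting error only, so the check does not cover spread between cultures. Alternatives were size factors of DESeq2 1.42.0, total counts, upper quartile factors, totals without mitochondrial and the top 20 genes, log2(FPKM + 0.1), protein-coding totals and each chromosome centred. Others were no or a 100-count minimum, and limits of 1.5-fold and 3-fold. GENCODE matched 22319 gene IDs. The members and lists were chosen with earlier results of these data known. Named are the members, the other Klf and Sp genes, and from each list up to 4 called members with the most counts, or up to 3 where none was called; some list genes are not reported here by name. Further list members, neighbours and the hairpin-site search were chosen after values were seen. The pairs of members set against each other within a library were not planned in advance.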

Additional observations from a re-analysis of the deposited data

How the results depend on the processing

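No paired analysis was possible because each group has 1 library. The count of higher members was 2, Klf7 and Klf2, in place of 1 under total counts, upper quartile factors, totals without mitochondrial and top 20 genes, protein-coding totals, each chromosome centred, and the 1.5-fold limit. It was 0 with the 3-fold limit. The count of lower members was 2, Klf4 and Klf6, in place of 0 with the 1.5-fold limit. The members' median log2 ratio of -0.03 became 0.032 under total counts, 0.034 under upper quartile factors, 0.031 with deposited FPKM, and 0.046 under totals without mitochondrial and top 20 genes and under protein-coding totals. Over all genes, 1731 were higher with no count minimum, 439 with a minimum of 100 counts, 1892 at 1.5-fold and 591 at 3-fold, against 1146. Lower were 463 with a minimum of 100 counts, 1753 at 1.5-fold and 422 at 3-fold, against 848. The limits and minimums change these counts by construction. Of 70 single-member values under other scalings, 39 lay outside the member's own counting interval. Counting error limits Klf2 (164 shcircSmad5 and 82 empty vector counts) most, and no member has a measured spread between cultures.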

Other observations

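The Klf genes belong to the wider class of zinc finger genes, and 336 genes with symbols that start with Zfp and a digit had at least 20 counts. Of these 11 were higher and 19 lower in the shcircSmad5 library, with a median log2 ratio of -0.15, and 306 were neither. These shares, 3.27% higher and 5.65% lower, lie near those of all protein-coding genes with at least 20 counts, 4.61% higher and 6.38% lower. The called genes with the most counts were Zfp750, Zfp358 (568 shcircSmad5 and 1273 empty vector counts, 2.29-fold lower), Zfp90 (843 shcircSmad5 and 351 empty vector counts, 2.35-fold higher) and Zfp950 (683 shcircSmad5 and 207 empty vector counts, 3.23-fold higher).

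Markers of other skin cell types had few counts. The fibroblast gene Pdgfra had 62 shcircSmad5 and 161 empty vector counts (2.65-fold lower), and Col1a2 and Col3a1 had 2 counts each in the shcircSmad5 library and 0 in the empty vector library. The macrophage gene Cd68, also expressed outside macrophages, had 225 shcircSmad5 and 249 empty vector counts, Cd74 had 1 count in the shcircSmad5 library and 0 in the empty vector library, and Cd3e had 0 counts in the shcircSmad5 library and 8 in the empty vector library. Of the melanocyte genes Pmel had 30 shcircSmad5 and 24 empty vector counts and Mlana 2 in the shcircSmad5 library and 0 in the empty vector library. The bulge keratin gene Krt15 was 3.27-fold lower, the only one of 11 basal and stem cell markers with at least 20 counts that passed the size rule. The part of these markers in the Klf values was not tested.

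The hairpin's target holds the bases TTGCACT just before its last base. If the antisense strand of the hairpin starts opposite that last base, these 7 bases pair with its bases 2 to 8, the seed. The strand and ends that the cells make were not measured. The same seed is found in mouse miRNAs of the miR-130 family, shown from RefSeq (GRCm38.p6) with the seed in capitals.
mmu-miR-130a-3p: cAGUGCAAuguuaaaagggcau
mmu-miR-301a-3p: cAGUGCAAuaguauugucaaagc
TTGCACT was searched on the sense strand of the 3′ UTR of the longest complete coding transcript of each member in GENCODE M21. It was present in 3 of the 10 members, with 2 copies in Klf3 and 1 in Klf7 and in Klf13, against 11.9% of 11580 protein-coding genes with at least 20 counts. These 3 have the longest 3′ UTRs of the members, at 3743, 6266 and 5157 bases, and the next is Klf9 at 3222. The shares were not adjusted for length, so they do not show an excess among Klf genes. The match in capitals is shown with its flanks, the first one for Klf3.
Klf3: aaatgggcattTTGCACTcgaaagtcact
Klf7: gaaatttaattTTGCACTatacattttcg
Klf13: tgtacatagatTTGCACTctggagtttct
These 3 members had log2 ratios of -0.41, 1.04 and -0.13, on both sides of 0. Over the protein-coding genes the median was -0.06 for the 1374 genes with the 7 bases and -0.05 for the others. A match of 7 letters describes the transcript, and whether the hairpin acts at any of these matches was not tested.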
